A study of Mus musculus with 6 samples.

Results

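The RNA that goes into an eCLIP experiment before any protein is pulled down was compared with and without ultraviolet crosslinking. The comparison used the 3 input libraries of a series of 6 libraries, of which 2 came from crosslinked cells (crosslinked inputs 1 and 2) and 1 from cells that were not crosslinked. All of these cells were P19, an established mouse embryonal carcinoma line that grows as undifferentiated stem-like cells. Per the labels' protocols, every culture was transfected transiently with mouse Gtsf1 (Asterix), a piRNA pathway protein with zinc fingers, carrying a C-terminal TEV-Strep tag under the EF-1alpha promoter in the pEF vector, so the non-crosslinked cells carried it too. Crosslinked cells received 400 mJ of light at 254 nm for about 45 s, 48 h after transfection. Lysates were treated with DNase and RNase I and cleared by centrifugation, and a portion was set aside as input before beads were added. Whether the 2 crosslinked inputs came from separate cultures is not given in the sources used here, so their spread may be technical.

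In eCLIP, 254 nm light joins RNA to the proteins that touch it, RNase I trims the RNA, and the input library is the reference against which a pull-down is read. An input holds all RNA of the lysate, mostly ribosomal RNA (rRNA), with small nuclear RNA (snRNA) of the spliceosome, small nucleolar RNA (snoRNA) that guides rRNA modification, and pieces of messenger RNA and introns. Repeats seen in such libraries are often copies that lie inside introns and are read through with the host gene. Reverse transcription tends to stop at a nucleotide that still carries a crosslinked peptide, a property the method uses to place binding sites.

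With 1 library on the non-crosslinked side, no test was run, and sizes of differences are given beside the difference between the 2 crosslinked inputs. The inputs held 14151141 reads without crosslinking, and 17462881 and 18418166 reads with it, of which 7.58%, 6.99% and 8.86% had no annotation. Levels are in RPM (reads per 1000000 annotated reads), where 1 read was worth 0.0765 RPM in the non-crosslinked input and 0.0616 and 0.0596 RPM in the crosslinked inputs. Log2 ratios of features are of RPM + 1, which understates differences of features with few reads. The labelled cell type was checked on stem cell transcripts, with exon reads of Pou5f1 at 34.0 RPM without crosslinking and 38.1 and 33.3 RPM with it, and of Lin28a at 20.3, 28.6 and 22.3 RPM in the same order. Sox2 had 6.88, 7.96 and 5.02 RPM, whereas Nanog stayed below 1 RPM in all 3 inputs. Of the 10 genes of this list, 7 reached a mean of 1 RPM, and Zfp42 and Dppa5a had at most 1 read in each input. Markers of mesoderm or endoderm reached a mean of 1 RPM in 0 of 8 genes, fibroblast markers in 1 of 7 and neural markers in 4 of 8. Summed levels of the neural list were 10.9, 13.9 and 14.2 RPM and of the fibroblast list 2.68, 3.88 and 3.22 RPM.

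Crosslinked inputs held less rRNA and more intron, exon and repeat sequence than the non-crosslinked input. The rRNA took 75.4% of annotated reads without crosslinking and 63.7% and 66.5% with it, or 65.1% ± 1.97 (SD, n = 2). Introns took 9.84% without crosslinking and 17.5% and 16.9% with it, a 1.75-fold difference, and the Wilson 95% interval of the non-crosslinked share ran from 9.82% to 9.85%. Exons went from 4.50% to 6.51% and 6.11%, a 1.40-fold difference. For rRNA, introns and exons alike, each crosslinked input lay further from the non-crosslinked input than from the other crosslinked input. The interval covers counting error alone, because PCR copies of a molecule are not independent.

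**Figure D1:**
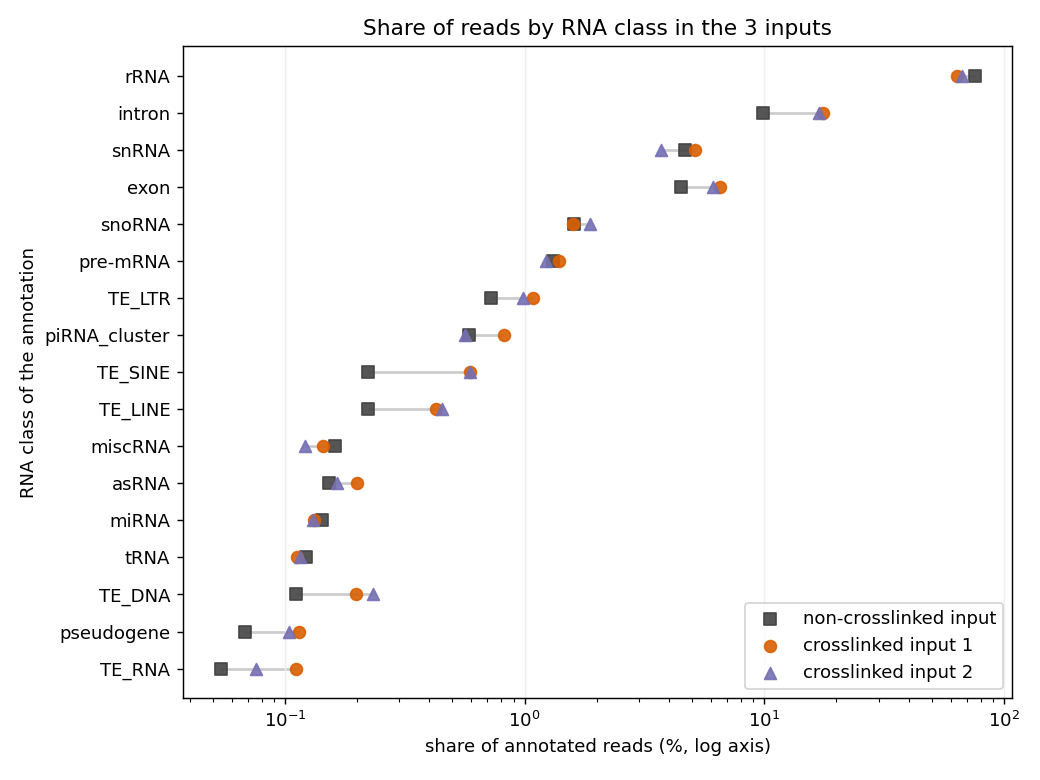
Share of annotated reads (%, log axis) for RNA classes that reached 0.1% in any input, with 1 point per library. The rRNA point of the non-crosslinked input sits to the right of both crosslinked inputs (75.4% against 63.7% and 66.5%), while the intron, exon, SINE, LINE and DNA transposon points sit to the left of them.

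Because shares add up to 100%, a smaller share of rRNA raises every other share. Leaving rRNA out of the library size lowered the log2 ratios by 0.56 and 0.45 for crosslinked inputs 1 and 2, and the TMM factors of edgeR lowered them by 0.84 and 0.75. Among the remaining reads, introns were still 1.23-fold higher with crosslinking, exons were at 0.988 times and LTR elements at 1.01 times the non-crosslinked share. Exons were therefore higher over all annotated reads but lower over non-rRNA reads, with TMM and with DESeq2 size factors. Introns kept their direction under all scalings tried other than TMM, where the inputs disagreed in sign. SINEs were 1.88-fold and LINEs 1.41-fold higher over non-rRNA reads and kept their direction under every scaling tried.

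Shares of several small RNA classes were not separated by crosslinking over annotated reads. The snRNA class had 4.65% without crosslinking, between the 5.13% and 3.72% of the crosslinked inputs. Features named pre-mRNA in the annotation took 1.32% without crosslinking and 1.39% and 1.22% with it. Annotated piRNA clusters took 0.584%, 0.820% and 0.563%, and snoRNAs 1.60%, 1.59% and 1.88%. Transfer RNA, at 0.123% without crosslinking and 0.113% and 0.115% with it, was lower in both crosslinked inputs under all scalings tried. The miRNA class summed to 0.143%, 0.132% and 0.131%, also lower in both, but Gm47295 and Gm47299 held 92.6% of its reads without crosslinking. Without these features, an alternative chosen after seeing the data, the class had 105 RPM against 211 and 234 RPM. Of all 18 tested features of the class, these included, 5 were 2-fold higher in both crosslinked inputs, or 27.8% against 1.7% of all features, and 0 were 2-fold lower, against 0.053%.

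More separate features were touched by reads after crosslinking. A count of at least 1 read was found for 353858 features in the non-crosslinked input and for 572002 and 577459 in the crosslinked inputs. Depth differed, so the crosslinked inputs were also thinned to the same number of non-rRNA reads as the non-crosslinked input. The number of non-rRNA features expected to have a read was then 432248 and 445546, against 353535 without crosslinking.

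Averaged over the 3 inputs, 1 RPM or more was reached by 39644 of 1282714 features with any read. Features at least 2-fold apart in the same direction in both crosslinked inputs were called, which gave 673 (1.7%) higher and 21 (0.053%) lower. The crosslinked inputs were themselves 2-fold apart at 156 features (0.394%). The split between higher and lower rested on the scale, with 215 (0.542%) higher and 149 (0.376%) lower when rRNA was left out, and 130 higher and 346 lower with TMM factors. The median feature had log2 ratios of 0.52 and 0.46, or 0.17 and 0.20 with rRNA left out, and 86.1% of features were above 0 in both crosslinked inputs. The mean over 3 inputs, 2 of them crosslinked, let in 12642 features with less than 1 RPM in the non-crosslinked input, which held 202 of the 673, but only 62 with less than 1 RPM in both crosslinked inputs. Counts also moved with the pseudocount, as 5659 features were 2-fold higher with 0.1 RPM added in place of 1, and 154 with 5 RPM added.

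**Figure D2:**
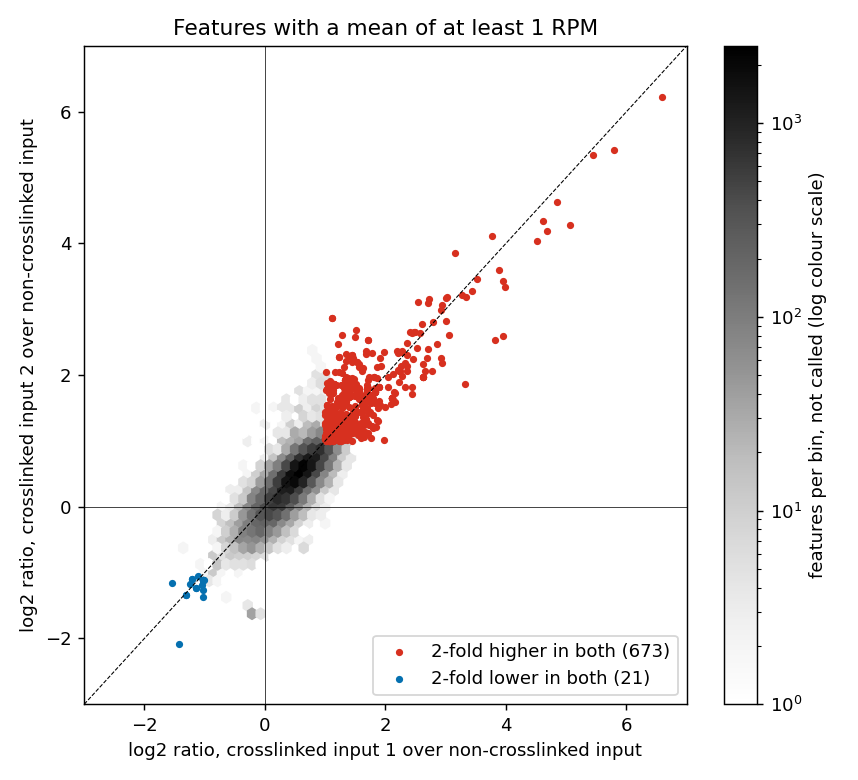
Log2 ratio of crosslinked input 1 (horizontal axis) and crosslinked input 2 (vertical axis) over the non-crosslinked input, on RPM + 1, for 39644 features, with features not called shown as a density, 673 that were 2-fold higher in both in red and 21 that were 2-fold lower in both in blue. Most features lie above 0 on both axes, near the dashed line of equal ratios, with medians of 0.52 and 0.46.

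Over annotated reads, 28S and 5S rRNA of the large ribosomal subunit were lower in both crosslinked inputs, while 18S rRNA of the small subunit was not. Features of 28S rRNA, the large subunit's main RNA, summed to 413518 RPM without crosslinking and 321183 and 345433 RPM with it. Features of 18S rRNA, the small subunit's RNA, summed to 250855, 245611 and 252861 RPM, so the crosslinked inputs lay on both sides of the non-crosslinked input, but both were below it with rRNA left out (log2 ratios of -0.59 and -0.43) and under every other scaling tried. The ratio of 28S to 18S reads, which no library scaling can move, was 1.65 without crosslinking and 1.31 and 1.37 with it. The 5S rRNA features summed to 76203 RPM without crosslinking and to 58461 and 53708 RPM with it. In contrast, 5.8S rRNA, which pairs with 28S rRNA in the large subunit, had 334 RPM without crosslinking and 918 and 727 RPM with it, a 2.46-fold difference. Both mitochondrial rRNAs were lower in both crosslinked inputs, Rnr1 with 4900, 3937 and 4386 RPM and Rnr2 with 8262, 7164 and 8040 RPM.

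Within rRNA, the pieces did not move together. The repeat annotation splits rRNA into numbered copies, and 227 of these features reached 1 RPM. A single 18S copy (number 18) held 218053 RPM without crosslinking and 216527 and 221893 RPM with it. Of the 12 features with at least 1% of reads in any input, the 10 of the large subunit were all lower in both crosslinked inputs, with ratios of mean levels from 0.472 to 0.868. The lowest of them, 28S copy 175, had 17009 RPM without crosslinking and 7897 and 8161 RPM with it. The 18S copy 15 had 9246 RPM without crosslinking and 3450 and 2189 RPM with it, and these 2 copies were the only rRNA features called lower. Against them stood 69 rRNA features called higher, or 30.4% of the 227 against 1.7% of all features, which together held 0.257% of annotated reads without crosslinking and 1.14% and 1.10% with it. The 18S copy 19 had 6.87 RPM without crosslinking and 754 and 588 RPM with it, a 97.6-fold difference. For 18S copy 42 the values were 21.8 RPM against 558 and 459 RPM, and for 28S copy 84 they were 74.3 RPM against 1931 and 1368 RPM. Where these copies lie along the mature rRNA is not given in the files, and reads may be split among near-identical copies.

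Introns were higher relative to the exons of the same gene. This ratio is taken within a library, so scaling does not touch it. Among 903 genes with a mean of at least 10 RPM in exons and in introns, the median log2 of intron over exon reads was 0.60 without crosslinking and 0.91 and 0.98 with it. Gene by gene, the difference had a median of 0.34 in crosslinked input 1 and 0.39 in crosslinked input 2. It was above 0 in both crosslinked inputs for 768 genes (85%) and below 0 in both for 57, and in 617 and 35 of these it exceeded the difference between the crosslinked inputs. The size of the difference was similar across gene lengths, with medians of 0.31 and 0.35 in the shortest quartile of RefSeq gene length and 0.35 and 0.34 in the longest.

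**Figure D3:**
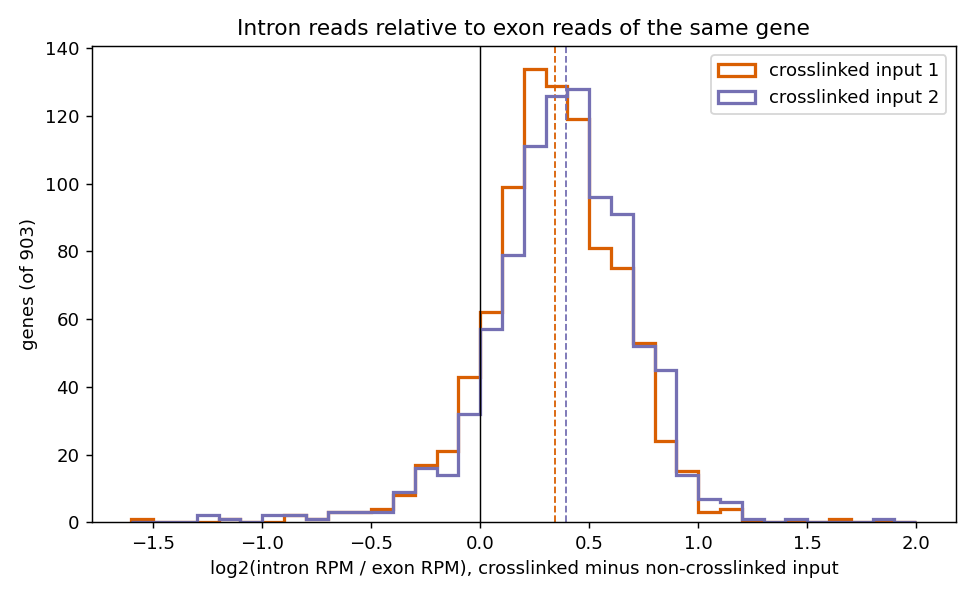
Number of genes by the difference in log2(intron RPM / exon RPM) between each crosslinked input and the non-crosslinked input, for 903 genes, with dashed lines at the medians of 0.34 and 0.39. Both distributions lie mainly to the right of 0, and the 2 crosslinked inputs overlap.

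Only 5 genes (0.554%) passed 2-fold higher for this ratio in both crosslinked inputs and 1 (0.111%) passed 2-fold lower. Lars2, the mitochondrial leucyl-tRNA synthetase, differed most, with intron reads of 7.12 RPM against 13.4 and 12.9 RPM and exon reads of 63.2 RPM against 37.2 and 30.6 RPM. Lin28a, an RNA-binding protein of stem cells, had intron reads of 5.00 RPM without crosslinking and 14.3 and 15.2 RPM with it. The others were Sall1, a zinc-finger transcription factor, Arf1, a small GTPase of Golgi traffic, and Nrip1, a nuclear receptor corepressor. At the other end, Rpl23, a ribosomal protein gene, had intron reads of 105.5 RPM without crosslinking and 70.6 and 76.0 RPM with it, while its exon reads were 16.7 RPM against 32.5 and 27.2 RPM. Odc1, which starts polyamine synthesis, Nop56, a core protein of C/D snoRNPs, Pabpc4 and Rps16 were next lowest. Each of these 5 genes holds at least 1 annotated snoRNA gene inside its bounds in RefSeq, and none of the 5 highest does. Over all 890 genes found in RefSeq, a split chosen after these values were seen, the ratio was lower in both crosslinked inputs for 16 of 67 genes that hold a snoRNA or scaRNA gene (23.9%) and for 37 of 823 that hold none (4.50%). The medians were 0.24 and 0.26 for the former and 0.35 and 0.41 for the latter.

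Summed by gene, introns differed more often than exons. Intron sums were 2-fold higher in both crosslinked inputs for 779 of 9048 genes (8.61%) and exon sums for 86 of 8299 (1.04%). Lower calls were absent among exon sums and numbered 2 (0.0221%) among intron sums, namely Cd44, a hyaluronan receptor, and Ranbp1, a cofactor of nuclear transport. Cd44 introns had 50.6 RPM without crosslinking and 21.0 and 19.04 RPM with it, and Ranbp1 introns 86.7 RPM against 38.8 and 37.4 RPM. RefSeq places the snRNA gene Gm23731 inside Cd44 and the snoRNA gene Gm25777 inside Ranbp1.

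Exon sums of mitochondrial mRNAs were lower in the crosslinked inputs. All 9 of the mitochondrial mRNAs found were lower in both crosslinked inputs, and so was their sum under every scaling tried. Over annotated reads none passed 2-fold in both, and 2.70% of all exon sums were lower in both. Cytochrome c oxidase subunit mt-Co1 had 849 RPM without crosslinking and 515 and 514 RPM with it, and mt-Co3 had 357 RPM against 183 and 181 RPM. The ATP synthase subunit mt-Atp6 had 343 RPM against 215 and 259 RPM, and the list's median log2 ratios were -0.62 and -0.45. Exon sums of all genes had medians of 0.48 and 0.39, or 0.05 and 0.06 with rRNA left out, where those of the mitochondrial list were -1.18 and -0.89.

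Ribosomal protein mRNAs had 3 of 80 members called higher, or 3.75% against 1.04% of all exon sums, and median log2 ratios of 0.68 and 0.44, a little above all exon sums. Rps21 had 1.76 RPM without crosslinking and 6.65 and 5.78 RPM with it, Rps29 had 2.06 RPM against 6.40 and 7.92 RPM, and Rpl38 had 1.61 RPM against 5.36 and 4.23 RPM. In all, 69 members were above the non-crosslinked input in both crosslinked inputs and 7 below it in both. Over all 8299 exon sums these numbers were 7327 and 224. Among the 7 members below it was Rpl13, with 86.1 RPM against 60.2 and 52.4 RPM. Rpl4, with 83.0, 85.1 and 79.5 RPM, had the crosslinked inputs on both sides. Translation and splicing factor mRNAs had 0 of 16 called and medians of 0.46 and 0.27. Eef1a1, the main elongation factor, had 344 RPM without crosslinking and 390 and 307 RPM with it, so the crosslinked inputs lay on both sides, and Hnrnpu, a nuclear RNA-binding protein, had 63.2 RPM against 110.2 and 95.6 RPM. Replication-dependent histone mRNAs, which end in a stem-loop and lack a poly(A) tail, had 0 of 62 called and medians of 0.23 and 0.12. Sums of the ribosomal protein, translation and histone lists were above the non-crosslinked input over annotated reads and below it when rRNA was left out, with TMM and with DESeq2 size factors. With rRNA left out, the medians over members were 0.15 and 0.03 for ribosomal proteins, -0.08 and -0.16 for translation and splicing factors, and -0.19 and -0.21 for histones.

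Genes that answer stress or DNA damage gave little to compare. Of 12 immediate early genes, 2 reached a mean of 1 RPM, Jun with 1.91, 1.54 and 1.61 RPM and Myc with 1.38, 2.03 and 1.40 RPM. Of 10 p53 and DNA damage genes, 4 did, with Mdm2, the p53 ubiquitin ligase, at 4.13, 5.73 and 5.97 RPM and Sesn2 at 5.12, 5.97 and 4.94 RPM. No tested member of either list was called.

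Repeats were higher in the crosslinked inputs almost throughout, and SINEs more so than endogenous retroviruses of the ETn family. With copies summed, 200 of 586 repeat subfamilies (34.1%) were 2-fold higher in both crosslinked inputs and 0 were 2-fold lower or below 0 in both. Leaving rRNA out brought the higher count to 45 (7.68%), and median log2 ratios went from 0.96 and 0.93 to 0.52 and 0.59. The 4 ID subfamilies tested, SINEs related to the BC1 RNA gene, summed to 7.09 RPM without crosslinking and 76.1 and 75.8 RPM with it, a 10.7-fold difference. Ancient MIR elements summed to 115.0 RPM against 387 and 374 RPM, and 4 of their 4 subfamilies were called. B4 elements summed to 596 RPM against 1804 and 1727 RPM, with 4 of 4 called, and B1 elements, which descend from 7SL RNA, to 785 RPM against 2083 and 2138 RPM, with 13 of 15 called. In B2 elements, which descend from a tRNA and have their own polymerase III promoter, the sums were 722 RPM against 1589 and 1570 RPM, and 2 of 5 were called. The young B2_Mm1a had 51.9, 57.5 and 66.3 RPM, whereas the older B3 had 311, 778 and 754 RPM.

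LINE and LTR groups spanned a wide range, against 34.1% of all 586 subfamilies called higher. Old L2 elements had 135 RPM without crosslinking and 313 and 297 RPM with it, with 4 of 4 subfamilies called. Young L1Md elements, which include copies able to move, had 752 RPM against 1252 and 1460 RPM, with 0 of 6 called, and most of the reads of L1Md_T, 91.4% in the crosslinked inputs, lay in a single copy; its group disagreed in sign between the crosslinked inputs with TMM and DESeq2 factors. MaLR elements had 920 RPM against 2612 and 2343 RPM, with 38 of 79 called. IAP elements, active mouse retroviruses, had 110.8 RPM against 180.7 and 160.7 RPM with 5 of 16 called, near the share of all subfamilies, and their sum was below the non-crosslinked input with TMM and DESeq2 size factors. ETn and MMETn elements, which are strongly transcribed in embryonal carcinoma cells, had 4638 RPM against 5129 and 4236 RPM, so the crosslinked inputs lay on both sides, with 0 of 5 called. With rRNA left out their log2 ratios were -0.42 and -0.58, and both were also below 0 with median centring, TMM and DESeq2 size factors. Their largest member, MMETn-int, had 3836 RPM without crosslinking and 4037 and 3376 RPM with it. The ID, MIR, B4, B1, B2, L2 and MaLR sums stayed above the non-crosslinked input under every scaling tried.

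**Figure D4:**
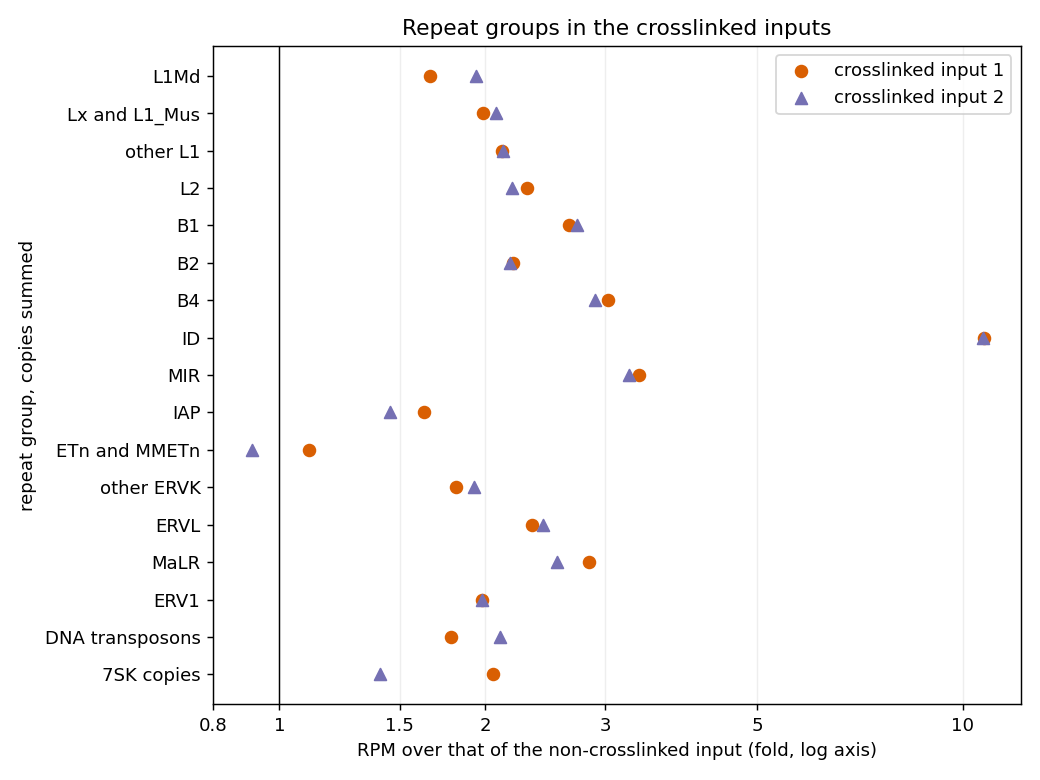
Level of each repeat group, copies summed, in each crosslinked input as a fold over the non-crosslinked input (log axis), where the line at 1 marks equal levels. ID elements stand furthest to the right at about 10.7-fold, the other SINE groups lie above 2-fold, and ETn and MMETn elements lie on both sides of 1.

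In some subfamilies a single copy held a large part of the crosslinked reads. MER97a, a DNA transposon, had 0.15 RPM without crosslinking and 46.1 and 42.9 RPM with it, and 99.2% of the crosslinked reads lay in copy 33. That copy had 1 read without crosslinking, so its 577-fold ratio has a counting interval from 103 to 22820. ORR1A2-int had 48.2 RPM against 562 and 370 RPM, with 92.4% of crosslinked reads in copy 182, which had 32.2 RPM against 526 and 335 RPM. Without that copy, ORR1A2-int had 15.9 RPM against 35.1 and 35.7 RPM. B1_Mm copy 39250 had 0.31 RPM, from 4 reads, against 28.8 and 20.4 RPM, and made up 23.4% of the reads of its subfamily in the crosslinked inputs, and without it B1_Mm still had 35.4 RPM against 76.8 and 83.3 RPM. In contrast, no copy held more than 0.89% of the ID4 reads, which were spread over 846 copies.

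Single small RNAs differed more than their classes did. Of 145 snRNA features, 25 were called higher, or 17.2% against 1.7% of all features, and 0 lower. U7 snRNA (Rnu7, chr6:124741225-124741286, 62 bases, in no other RefSeq gene), which guides the cut at the 3' end of histone mRNAs, had 3 reads or 0.23 RPM without crosslinking and 40.3 and 22.8 RPM with it. Its ratio of 138 has a counting interval from 46.8 to 665. Gm23502 (chr14:21812712-21812855, 144 bases) had 1.22 RPM without crosslinking and 63.1 and 54.2 RPM with it, and Gm24046 had 5.32 RPM against 96.8 and 67.2 RPM. U12 snRNA (Rnu12) of the minor spliceosome had 374 RPM against 734 and 432 RPM, a difference smaller than that between the crosslinked inputs. U11 snRNA had 383, 391 and 278 RPM, with the non-crosslinked input between the crosslinked inputs. The U1 genes did not move together. Rnu1a1 had 2098 RPM without crosslinking and 1989 and 1462 RPM with it, lower in both. Rnu1b1 had 525 RPM against 848 and 602 RPM, higher in both, and Rnu1b2 had nearly the same levels as Rnu1b1. For Rnu1b6 the crosslinked inputs lay on both sides. In each of these U1 genes, the crosslinked inputs differed from each other by more than their mean differed from the non-crosslinked input.

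The crosslinked inputs disagreed on snRNA. Their median difference was 0.67 on the log2 scale over snRNA features, against 0.13 over all features, and crosslinked input 2 was the lower. Features with an annotated length of 101 to 130 bases, 79 in number, summed to 9745 RPM without crosslinking and 9157 and 6244 RPM with it. Their median log2 ratios were -0.15 in crosslinked input 1 and -1.59 in crosslinked input 2, a larger fall than that of their sum. Rnu6, the U6 snRNA gene, showed this with 10.3 RPM without crosslinking and 9.03 and 2.78 RPM with it. Those of 131 to 160 bases, 12 in number, had medians of 1.31 and 1.25 with 7 called higher. They summed to 649 RPM without crosslinking and 1359 and 1017 RPM with it. Those of 161 to 200 bases, 40 in number, had medians of 0.55 and 0.12 with 11 called higher. Over all snRNA features 17.2% were called higher, and over all features 1.7%.

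Among snoRNAs, 64 of 344 were called higher, or 18.6% against 1.7% of all features, and 1 lower. Guides of the H/ACA type, which direct pseudouridylation, were above the non-crosslinked input in both crosslinked inputs for 28 of 41 features and below it for 5, with medians of 0.20 and 0.40. C/D guides, which direct ribose methylation, were above it for 43 of 93 and below it for 36, with medians of 0.07 and 0.05. The C/D features include Snord116l copies, most of them with identical levels, and each of these copies was below it in both. Counted separately, these copies raise the number below and lower the C/D medians, so the 2 types are not compared on equal terms. All of the H/ACA and C/D medians given are below the shifts of 0.56 and 0.45 that leaving rRNA out brings. Snora65, inside Rpl12, had 26.7 RPM without crosslinking and 83.7 and 115.1 RPM with it. Snora73a, a U17 gene that takes part in rRNA processing and lies inside Snhg3, had 206 RPM against 438 and 558 RPM, and Snora62, inside Rpsa, had 54.3 RPM against 127.3 and 127.2 RPM. Snord37 (chr10:81178961-81179013), inside Eef2, had 0.76 RPM against 24.997 and 20.4 RPM, while the exon reads of Eef2 were 228, 276 and 238 RPM. Gm24151 (chr11:62776985-62777125), inside Zfp286, had 0.57 RPM against 20.4 and 26.4 RPM. Snord47 was the snoRNA called lower, with 112.8 RPM against 54.3 and 48.8 RPM. U3 snoRNA, needed for 18S processing, had 694 RPM without crosslinking and 410 and 624 RPM with it for the gene Rnu3b1, whose copies share reads. For the U3 gene Rnu3a the values were 338, 282 and 359 RPM, with the crosslinked inputs on both sides.

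Polymerase III transcripts went both ways. The 7SL RNA of the signal recognition particle (Rn7s1, which shares its reads with Rn7s2) had 674 RPM without crosslinking and 473 and 412 RPM with it. The Y RNAs, partners of the Ro60 protein, were higher, Rny3 (chr6:47781624-47781724) with 28.5 RPM against 101.8 and 76.7 RPM, and Rny1 (chr6:47788070-47788180) with 156.8 RPM against 305 and 221 RPM, although for Rny1 the crosslinked inputs disagreed in sign with TMM and DESeq2 size factors. The 7SK copies summed to 540 RPM against 1109 and 758 RPM, with the same disagreement under these factors. Rmrp, the RNA of RNase MRP, had 367, 452 and 454 RPM, and Rpph1, the RNA of RNase P, 172, 175 and 195 RPM, both lower once rRNA was left out.

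Nuclear-encoded tRNA went both ways by anticodon. Of 35 groups with a mean of at least 1 RPM, 0 were called lower, and the 1 called higher (2.86%) holds tRNA features without a stated anticodon, with 0.50 RPM without crosslinking and 3.77 and 4.00 RPM with it. Over groups, the median log2 ratios were 0.23 and 0.01, below the shifts of 0.56 and 0.45 that leaving rRNA out brings. In all, 16 groups were above the non-crosslinked input in both crosslinked inputs over annotated reads and 10 below it in both. Among those above, Tyr-GTA had 2.294 RPM without crosslinking and 9.73 and 5.42 RPM with it, Lys-CTT 3.52 RPM against 7.44 and 6.66 RPM, and the initiator iMet-CAT 1.38 RPM against 4.43 and 2.92 RPM. Lower in both, Glu-CTC had 145.5 RPM against 77.1 and 67.9 RPM and selenocysteine tRNA 14.8 RPM against 7.57 and 6.73 RPM, both close to 2-fold lower. Asp-GTC, the most abundant group, had 510 RPM without crosslinking and 425 and 534 RPM with it. Of 80 single tRNA features, 3 were called lower, against 0.053% of all features, all of them Gly-CCC genes that may share reads, as Gly-CCC-2-1 and Gly-CCC-2-2 had the same levels in the inputs, with 4.51 RPM against 1.32 and 1.44 RPM for Gly-CCC-3-1. The 1 called higher, or 1.25% against 1.7% of all features, was Tyr-GTA-6-1, with 1.15 RPM against 6.40 and 3.99 RPM.

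Mitochondrial tRNAs differed from one another and from the mitochondrial mRNAs. Of 21 tested, 5 were called higher, or 23.8% against 1.7% of all features. In all, 13 were above the non-crosslinked input in both crosslinked inputs and 2 (Td and Tq) below it in both. Of all features, 86.1% were above it in both on this scale of annotated reads. Over non-rRNA reads the class took 0.105% without crosslinking and 0.133% and 0.0943% with it, so the crosslinked inputs lay on both sides. The tRNA for lysine (Tk) had 5.51 RPM without crosslinking and 48.3 and 30.2 RPM with it, that for asparagine (Tn) 11.9 RPM against 69.4 and 41.5 RPM, and that for cysteine (Tc) 0.46 RPM against 10.2 and 5.60 RPM. The tRNA for valine (Tv), at 92.4, 134.6 and 75.0 RPM, had the crosslinked inputs on both sides.

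Primary microRNA transcripts were few, and all 3 tested features of this class were called higher, against 1.7% of all features. Mature sequences are shown for mir-5126 and mir-1843b of this class and for miR-6538 of the miRNA class, because their loci are described here, while mir-1949 is named only. For mir-5126, mir-1843b and mir-1949, the values are of reads over the annotated primary transcript, not of the mature microRNA. For miR-6538 they are of reads over the feature of that name in the miRNA class. The feature mir-5126, at a locus inside Dner with its mature arm at chr1:84695890-84695911 (plus strand), had 2.98 RPM without crosslinking and 9.91 and 9.59 RPM with it. The feature mir-1843b, at a locus inside Cop1 that overlaps Scarna3a, with mature arms at chr1:159340362-159340382 and chr1:159340400-159340419 (plus strand), had 0.61 RPM against 3.02 and 3.22 RPM. The feature mir-1949 had 1.91 RPM against 8.07 and 7.51 RPM. In the miRNA class, miR-6538 (chr12:26414970-26414988, minus strand, inside Rnf144a) had 2.41 RPM against 4.96 and 12.5 RPM, with the crosslinked inputs further apart from each other than crosslinked input 1 was from the non-crosslinked input. Mature sequences from RefSeq (GRCm38.p6) run 5' to 3', with the seed, bases 2 to 8, in capitals, and no 2 share a seed. The arms of miR-5126 and miR-6538 are 100% and 94.7% G or C, and those of miR-1843b are 47.6% (5p) and 60.0% (3p).
mmu-miR-5126: gCGGGCGGggccgggggcgggg
mmu-miR-1843b-5p: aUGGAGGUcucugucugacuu
mmu-miR-1843b-3p: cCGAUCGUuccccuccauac
mmu-miR-6538: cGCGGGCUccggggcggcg

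A small number of introns and exons stood far from the rest. Intron 4 of Zfpm1, the gene of the GATA cofactor FOG1 (chr8:122281856-122337862), had 1.499 RPM without crosslinking and 137 and 105 RPM with it, an 80.9-fold difference. Introns of Scaper (1.03 RPM against 11.5 and 6.97 RPM) and Man2a1 (1.69 RPM against 12.9 and 10.9 RPM) came next. Exon 12 of Wdr38 had 0.92 RPM against 10.2 and 15.6 RPM, and exon 10 of Tmem94 had 1.51 RPM against 7.83 and 8.85 RPM. Lower introns included intron 5 of Ranbp1, with 41.7 RPM against 16.2 and 15.8 RPM, and intron 3 of Gtf2a1, a subunit of the general factor TFIIA, with 9.75 RPM against 3.88 and 3.59 RPM. Exon 8 of Taf1d, which encodes a subunit of the polymerase I factor SL1, had 161.6 RPM against 54.5 and 72.1 RPM, and RefSeq places 6 snoRNA genes within Taf1d. The antisense RNA 4831440D22Rik had 2.22 RPM without crosslinking and 29.9 and 28.8 RPM with it.

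**Figure D5:**
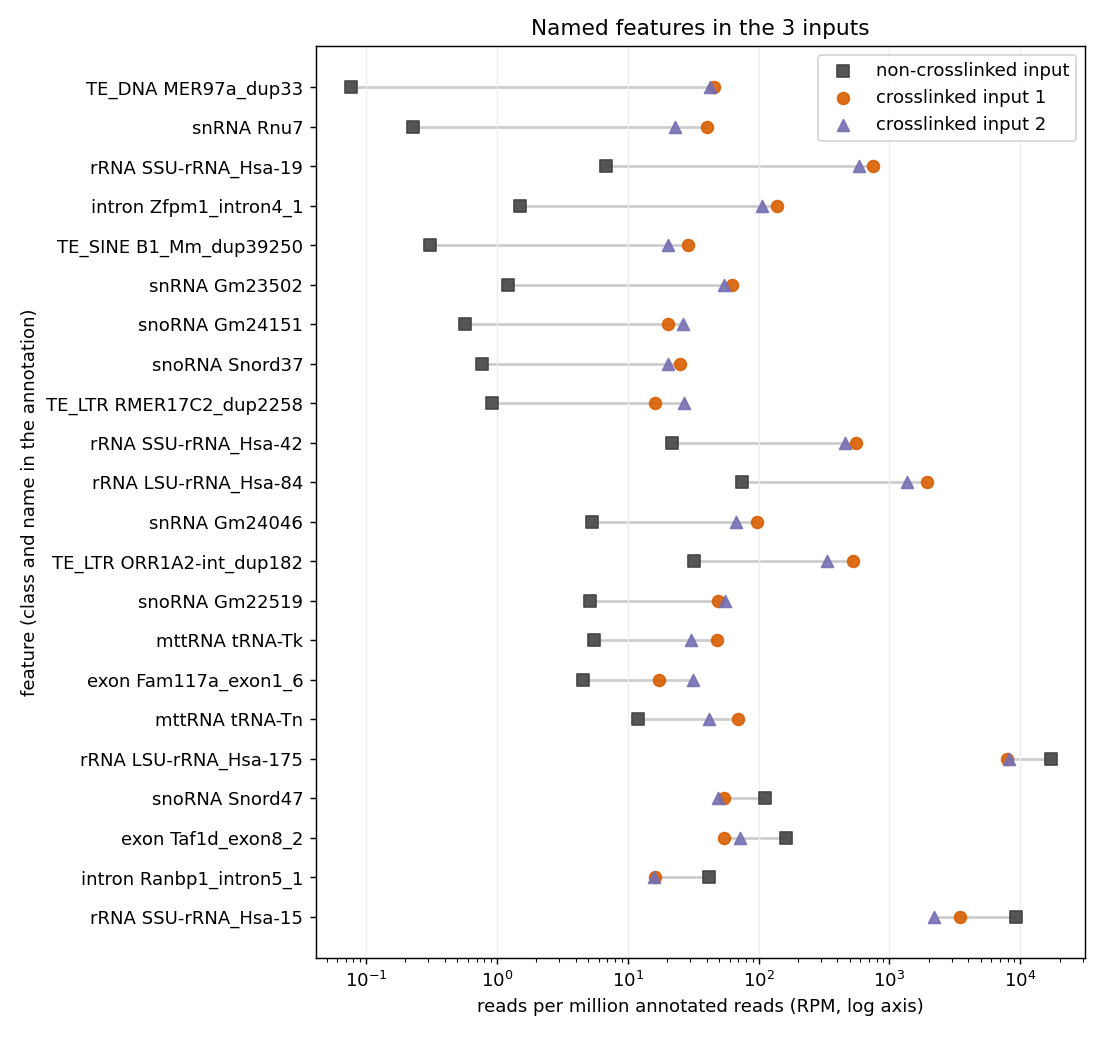
Level (RPM, log axis) in the 3 inputs of 22 features with 20 RPM or more in any input, namely rRNA, snRNA, snoRNA, mitochondrial tRNA, exon, intron, SINE, LTR and DNA transposon features named by rule, ordered by the ratio of the mean crosslinked level to the non-crosslinked level. In each row the non-crosslinked input lies outside the crosslinked pair, from MER97a copy 33 at the top to 18S copy 15 at the bottom.

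The calls were not spread evenly over levels. Features with a mean of 1 to 2 RPM were called higher in 0.421% of cases, those of 5 to 20 RPM in 4.45% and those of 20 to 100 RPM in 13.8%. From 100 RPM up, 12.7% were called higher, and the median log2 ratios were 0.018 and 0.037, against 0.79 and 0.77 at 20 to 100 RPM. Among the 673, 64 had no more than 3 reads in the non-crosslinked input. Identical counts were also common, as 34.3% of tested features had the same 3 levels as an earlier feature, to within 1e-06 RPM, and counting each such set once left 541 higher and 12 lower.

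The transfected gene gave different answers by annotation. In the pre-mRNA class, the feature named Gtsf1 (gene at chr15:103402458-103430445) had 53.2 RPM without crosslinking and 50.4 and 50.8 RPM with it. Its exon features summed to 23.5 RPM without crosslinking and 47.7 and 46.5 RPM with it, a 2.00-fold difference, and kept this direction under every scaling tried. Its introns had under 1 RPM in all 3 inputs.

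The same contrast in the pull-downs, which were made from the lysates that the inputs were taken from and so are not independent of them, gave more calls. Among the 39644 features tested in the inputs, 7412 (18.7%) were 2-fold higher in both crosslinked pull-downs than in the non-crosslinked pull-down, and 111 (0.28%) were lower. Of the 673 features higher in the inputs, 306 (45.5%) were higher there too and 2 were lower, which were copy 350 of RMER17A-int and copy 3445 of RMER1B. These 306 made up 4.13% of the 7412. Of the 21 features lower in the inputs, 13 were lower there too.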

How the data were processed

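The 6 eCLIP libraries were sequenced, and the 3 inputs are described here, with the 3 pull-downs used only for the same contrast. The authors deposited, per library, expected counts for each feature, with shared reads split among features, and RPM values; the deposited RPM values were not used. Per the submitters' processing notes, bcl2fastq 2.19, STAR 2.5.2b, bedtools 2.29.0 and mm10 were used; removal of PCR duplicates is not given in the sources used here. Unannotated reads were left out of library sizes. RPM was recomputed per 1000000 annotated reads, and log2 ratios were taken with 1 RPM added, over features whose mean over the 3 inputs reached 1 RPM. A feature was called when both crosslinked inputs were at least 2-fold from the non-crosslinked input in the same direction, and no test was run. TMM factors (edgeR 4.0.16) and size factors (DESeq2 1.42.0, R 4.3.3) served as other scalings. Shares carry 95% Wilson intervals, and ratios against 1 to 3 reads are given with their counting interval. Genes were matched by symbol to RefSeq (GRCm38.p6, the build of mm10).

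Named were classes that reached 0.1% of reads in any input, the 3 highest and 3 lowest called features of classes with at least 20 tested, up to 10 features past 4-fold averaging 10 RPM or more, Gtsf1, repeat subfamilies by the same rule, and listed genes. Other small RNAs, repeats and genes were named after their values were seen, and the comparison, members and lists were chosen with earlier results of these data known. Some lncRNA lists were not analysed here.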

Additional observations from a re-analysis of the deposited data

Results flagged for a closer look

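Some results went one way in the inputs and the opposite way in the pull-downs, in both crosslinked libraries of each kind; the difference was not tested. The share of tRNA was lower with crosslinking in the inputs (log2 ratio of the mean share -0.11) and higher in the pull-downs (2.76). The miRNA class did the same (-0.12 and 0.41), as did miscRNA, which holds 7SL and Y RNAs (-0.29 and 0.66). Most of the non-crosslinked input reads of the miRNA and miscRNA classes lay in a pair of features each. Without Gm47295 and Gm47299 the miRNA class gave 1.08 in the inputs and 0.43 in the pull-downs, and without Rn7s1 and Rn7s2 the miscRNA class gave 0.67 and 1.53, so neither class then went opposite ways. Among single features, Gly-CCC tRNA genes were lower in the inputs and higher in the pull-downs, with -1.21 and 1.77 for Gly-CCC-3-1 and -1.16 and 1.77 for Gly-CCC-2-1. Gly-CCC-2-2 had the same input levels as Gly-CCC-2-1, so these are not separate results. The reverse held for Lx5c copy 15960 of the LINEs (2.04 in the inputs and -0.80 in the pull-downs), the antisense RNA Gm26636 (1.61 and -0.26) and exon 1 of Fam117a (2.12 and -0.47).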

How the results depend on the processing

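The count of features higher in both crosslinked inputs was 673. It was 233 with a mean of at least 10 RPM, 5659 and 154 with 0.1 and 5 RPM added, 215 with rRNA left out, 130 with TMM factors, 132 with DESeq2 size factors, 158 after centring on the median, and 10538 and 59 at folds of 1.5 and 4. The count of lower features was 21. It was 6 with a mean of at least 10 RPM, 37 and 5 with 0.1 and 5 RPM added, 149 with rRNA left out, 346 with TMM factors, 333 with DESeq2 size factors, 142 after centring, 12 with identical features counted once, and 97 and 0 at folds of 1.5 and 4. Leaving out each crosslinked input in turn gave 1296 to 1738 higher and 29 to 101 lower. Of repeat subfamilies, 200 were higher. The count was 130 with a mean of at least 10 RPM, 353 and 70 with 0.1 and 5 RPM added, 45 with rRNA left out, 25 with either TMM or DESeq2 factors, 11 after centring on their own median, 438 and 10 at folds of 1.5 and 4, and 247 to 264 without each crosslinked input in turn; 0 were lower under each of these. Over reads other than rRNA, the log2 ratio of the share turned from 0.49 to -0.017 for exons, 0.11 to -0.39 for snoRNA, 0.26 to -0.25 for asRNA and 0.24 to -0.27 for piRNA clusters. It went from 0.81 to 0.30 for introns, 0.52 to 0.016 for LTR elements, -0.01 to -0.52 for pre-mRNA and -0.07 to -0.58 for snRNA. By construction these follow from the smaller rRNA share of the crosslinked inputs. For the other settings the cause was not tested. The median intron-to-exon difference of 0.37 ranged from 0.34 to 0.39 without each crosslinked input and was 0.38 at minimums of 5 and 30 RPM, which were chosen after seeing the data. No paired analysis was possible because the comparison has 1 non-crosslinked input, and the numbers of the crosslinked inputs have no partner. A single non-crosslinked library carries every ratio, so its own spread is unknown.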
